A study of Mus musculus with 4 samples.

Results

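The epithelial chemokines are 7 genes, Cxcl1, Cxcl2, Cxcl5, Cxcl10, Cxcl15, Cxcl17 and Ccl20, taken by symbol from the 22583 features of a single-cell RNA sequencing matrix of mouse trachea. All 7 symbols were found, and each had more than the 50 unique molecular identifiers (UMIs, the counted transcript tags) over filtered cells that a call required. Cxcl1 (ENSMUSG00000029380), Cxcl2 (ENSMUSG00000058427), Cxcl5 (ENSMUSG00000029371), Cxcl10 (ENSMUSG00000034855) and Cxcl15 (ENSMUSG00000029375) lie on chromosome 5, Cxcl17 (ENSMUSG00000060188) on chromosome 7 and Ccl20 (ENSMUSG00000026166) on chromosome 1. Tracheal cells came from 4 groups of 129S6/SvEvTac mice aged 5 to 8 months. They were bgh mice with a mutation in Spef2 (5 pooled tracheas), Cfap54gt/gt mice, whose Cfap54 is disrupted by a gene trap (6 pooled tracheas), nm1054 mice lacking Cfap221 (6 pooled tracheas), and wild-type mice (6 pooled tracheas). The 3 mutant lines model primary ciliary dyskinesia, in which defective motile cilia clear mucus poorly, and the mutated genes encode parts of the central pair at the core of the axoneme. Each group was 1 library, and in all groups the tracheas were digested with pronase and the cells were held on dishes for 3 to 4 hours to remove fibroblasts, then depleted of dead cells.

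The barcodes carry a library number from 1 to 4 that no source used here ties to a genotype. Levels are therefore given for each numbered library, no mutant is set against wild type, and the mutated genes could not be set against the labels. With 1 library per genotype there is no replicate and no p-value. After filtering, libraries 1 to 4 held 3678, 3822, 6735 and 5186 cells, with medians of 5734.5 to 6780 UMIs over all deposited barcodes, and 52 barcode sequences occurred in more than 1 library. A level is the class's UMIs of a gene per 1000000 UMIs of the class (CPM), with an exact Poisson 95% interval, and all intervals here cover counting error only.

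Chemokines are small secreted proteins that guide leukocytes through G-protein-coupled receptors. Airway epithelium makes several of them at rest and raises others after infection, injury or cytokine signals such as interleukin 17 and tumour necrosis factor, mainly through NF-kB. Cxcl1, Cxcl2 and Cxcl5 act on the receptor Cxcr2 and attract neutrophils, and Cxcl15, called lungkine, is a mouse neutrophil attractant of lung epithelium. Cxcl10 is induced by interferon and binds Cxcr3 on activated T cells, Ccl20 binds Ccr6 on dendritic cells and interleukin 17-producing T cells, and Cxcl17 is a chemokine of mucosal surfaces.

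The promoters are shown because the members separate below into a set higher in basal-like cells than in secretory-like and ciliated-like cells (Cxcl1, Cxcl2, Cxcl10 and Ccl20) and a set that is not. RefSeq sequence from 250 bases before to 50 bases after the transcription start, on build GRCm38.p6 and not the build GRCm39 of the counts, was at hand for 5 of the 7 genes, not for Cxcl5 and Cxcl17. The windows are chr5:90890995-90891294 on the plus strand for Cxcl1, chr5:90903649-90903948 on the plus strand for Cxcl2, chr5:92348840-92349139 on the minus strand for Cxcl10, chr1:83116516-83116815 on the plus strand for Ccl20, and chr5:90794284-90794583 on the plus strand for Cxcl15. Each is written 5′ to 3′ in the direction of transcription. Capitals mark matches on either strand to a kB-type motif, GGGNNTTNC, and to an interferon-stimulated response element type motif, GAAANNGAA, where N is any base.
Cxcl1: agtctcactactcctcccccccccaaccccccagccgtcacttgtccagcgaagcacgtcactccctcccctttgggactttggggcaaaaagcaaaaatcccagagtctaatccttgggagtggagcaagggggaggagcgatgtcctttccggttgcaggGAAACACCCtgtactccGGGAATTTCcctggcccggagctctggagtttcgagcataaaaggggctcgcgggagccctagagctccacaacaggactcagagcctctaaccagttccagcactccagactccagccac
Cxcl2: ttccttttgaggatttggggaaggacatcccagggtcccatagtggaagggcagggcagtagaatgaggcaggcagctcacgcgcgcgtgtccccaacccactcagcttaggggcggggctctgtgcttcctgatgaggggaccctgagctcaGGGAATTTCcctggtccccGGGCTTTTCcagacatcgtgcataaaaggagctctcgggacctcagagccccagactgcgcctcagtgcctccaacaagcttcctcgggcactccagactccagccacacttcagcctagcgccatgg
Cxcl10: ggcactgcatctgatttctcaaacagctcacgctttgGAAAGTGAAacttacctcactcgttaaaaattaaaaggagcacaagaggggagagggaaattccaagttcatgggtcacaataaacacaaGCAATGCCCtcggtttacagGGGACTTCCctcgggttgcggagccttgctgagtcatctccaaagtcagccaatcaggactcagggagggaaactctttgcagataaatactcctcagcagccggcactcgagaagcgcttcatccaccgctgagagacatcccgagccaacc
Ccl20: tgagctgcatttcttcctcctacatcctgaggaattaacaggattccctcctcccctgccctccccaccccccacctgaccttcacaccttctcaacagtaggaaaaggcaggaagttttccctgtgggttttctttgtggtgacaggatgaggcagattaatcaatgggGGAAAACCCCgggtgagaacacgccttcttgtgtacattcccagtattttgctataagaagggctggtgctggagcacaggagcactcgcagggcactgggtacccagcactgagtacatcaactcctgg
Cxcl15: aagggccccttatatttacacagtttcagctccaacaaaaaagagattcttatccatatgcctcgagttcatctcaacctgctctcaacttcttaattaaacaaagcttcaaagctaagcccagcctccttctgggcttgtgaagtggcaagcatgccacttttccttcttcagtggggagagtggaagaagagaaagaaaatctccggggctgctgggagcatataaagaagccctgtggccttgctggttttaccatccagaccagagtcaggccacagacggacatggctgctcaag
The kB-type motif matched in 4 of these 5 windows, against 15.2% of the 32851 mouse promoter windows in the same table. In Cxcl1 its matches began 88 and 71 bases before the start, in Cxcl2 97 and 78 bases before it, in Cxcl10 123 and 103 bases before it, and in Ccl20 at 2 overlapping positions 80 and 79 bases before it. Cxcl15 held no match to either motif in this window. The interferon-type motif matched once, in Cxcl10, 213 bases before the start, against 8.56% of all windows. With 1 further C at its 3′ end the kB-type motif still matched in the same 4 members and in 4.79% of all windows, and with 1 further A the interferon-type motif matched in Cxcl10 and in 3.44% of all windows. The 2 motifs do not overlap in these promoters. These are letter matches and no measure of binding.

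Cells were clustered without the 7 genes and without the other genes listed here, so their levels did not choose the classes, although genes that vary with them may have. The named classes were 6201 secretory-like cells (clusters 2, 5 and 12), 4840 basal-like cells (clusters 1, 3 and 9), 4754 ciliated-like cells (clusters 4, 6, 7 and 11), 474 hillock-like cells (cluster 19) and 131 proliferating-like cells (cluster 14), which also had 8 of 8 basal and 5 of 8 secretory markers. Hillock-like cells also had 6 of 8 basal markers, and basal-like cluster 1 had 4 of 6 hillock markers. Basal cells are the stem cells at the base of the epithelium, secretory cells line the lumen and release defence proteins, and hillock cells are flat Krt13-positive cells in stratified patches. Median depth was 10673 UMIs in secretory-like, 4002 in basal-like and 2547 in ciliated-like cells. Another 2518 cells sat in clusters with markers of more than 1 lineage, of which cluster 8, with 1742 cells, had both ciliated and secretory markers and a median of 17330 UMIs. Cluster 18, with 77 cells, held 7 of 8 macrophage and 7 of 8 T cell markers.

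Over all filtered cells Cxcl17 was by far the most abundant member, with 72405 UMIs in 63.6% of cells, and ranked 260 among 17743 detected genes. Cxcl10 followed with 9202 UMIs, then Cxcl1 with 3633, Cxcl2 with 3191, Cxcl5 with 1676, Ccl20 with 1614 and Cxcl15 with 1474. Basal-like cells were 24.9% of cells and gave 13.7% of all UMIs, but they gave 57.1% of the UMIs of Cxcl10, 54.1% of Cxcl1, 53.6% of Ccl20 and 41.7% of Cxcl2. Secretory-like cells gave 44.8% of all UMIs, 68.9% of those of Cxcl15, 68.7% of Cxcl5 and 46.9% of Cxcl17. For Cxcl2 these classes were close, with 1332 UMIs in basal-like and 1254 in secretory-like cells.

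**Figure D1:**
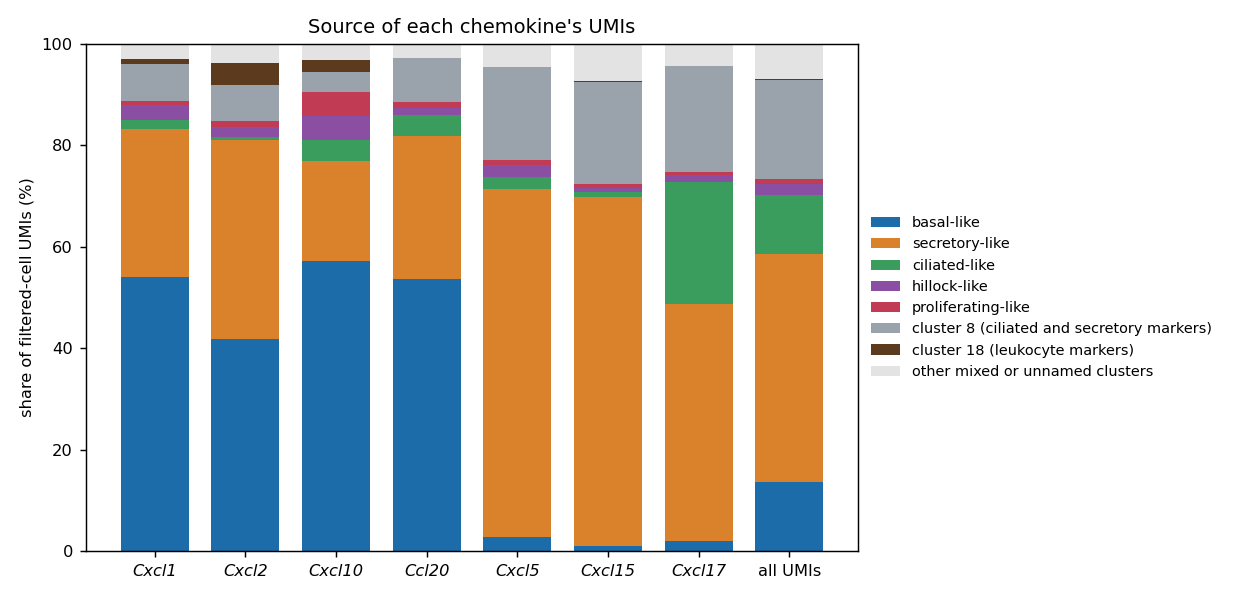
Share of each chemokine's UMIs over all filtered cells (y axis, percent) that came from each class or cluster, with the same split of all UMIs in the last bar. Basal-like cells hold the largest share of Cxcl1, Cxcl2, Cxcl10 and Ccl20, at 41.7% to 57.1%, and secretory-like cells that of Cxcl5, Cxcl15 and Cxcl17. For Cxcl2, secretory-like cells lie close behind basal-like cells.

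Basal-like cells had more Cxcl1, Cxcl2, Cxcl10 and Ccl20 than the other cells of the same library, by at least 2-fold in each of the 4 libraries. They had less Cxcl5, Cxcl15 and Cxcl17 by the same measure. Thus 4 of 7 members were called higher, where 8.01% of 13165 genes were, and 3 of 7 were called lower, where 8.95% were. The call needs a log2 ratio of at least 1 in the same direction in every library, on the scale of log2(CPM + 1). The same 4 members were called higher under each of the 10 alternatives run for this comparison. Of these, 1 that calls fewer clusters mixed left the basal-like cells and their reference unchanged, so it could not alter the calls.

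Cxcl1 stood at 96.5, 93.6, 58.3 and 98.8 CPM in basal-like cells of libraries 1 to 4, against 7.29, 6.56, 14.9 and 16.2 CPM in the other cells. Every basal-like value lay above every other value, and the median log2 ratio was 3.05, from 1.90 in library 3 to 3.64 in library 2. Cxcl2 stood at 70.9, 80.6, 56.7 and 33.2 CPM in basal-like cells, against 10.6, 12.7, 17.6 and 9.72 CPM in the other cells. This partner of Cxcl1 in neutrophil recruitment was lowest in library 4, and its median log2 ratio was 2.12, from 1.63 to 2.63.

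Cxcl10 was the member with the highest level in basal-like cells, at 378, 184, 209 and 177 CPM, against 24.3, 26.1, 29.0 and 29.2 CPM in the other cells. Library 1 stood above the rest in basal-like cells, and the median log2 ratio was 2.79, from 2.56 to 3.91. Ccl20 stood at 36.3, 52.7, 34.9 and 30.03 CPM in basal-like cells, against 4.85, 4.50, 3.94 and 7.46 CPM in the other cells. The groups did not overlap, and the median log2 ratio was 2.77, from 1.88 to 3.29.

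After every cell was thinned to 1000 UMIs, which left out 38 basal-like, 62 secretory-like and 578 ciliated-like cells, Cxcl10 was found in 10.8% of basal-like, 1.63% of secretory-like and 1.82% of ciliated-like cells. Cxcl1 was found in 6.14%, 1.29% and 0.216% of these cells in the same order, and Ccl20 in 2.71%, 0.489% and 0.168%. Without thinning, Cxcl10 had a UMI in 21.1% of basal-like, 7.76% of secretory-like and 4.23% of ciliated-like cells. Free RNA was gauged from Scgb1a1, the abundant secretoglobin of secretory cells, which reached 1.00% to 2.34% of its secretory-like level in basal-like cells. It was also gauged from the basal keratins Krt5 and Krt14, which reached 0.260% to 0.829% and 1.40% to 2.58% of their basal-like levels in secretory-like cells. In secretory-like cells Cxcl1 stood at 9.06% to 32.8% of its basal-like level and Cxcl2 at 17.7% to 42.3%, above both keratins. Cxcl10 stood there at 8.34% to 13.3% and Ccl20 at 7.17% to 26.5%. All 8 basal markers summed to 788 to 1295 CPM in secretory-like and 3194 to 4964 CPM in basal-like cells. The part of free RNA in these chemokine levels was not tested.

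**Figure D2:**
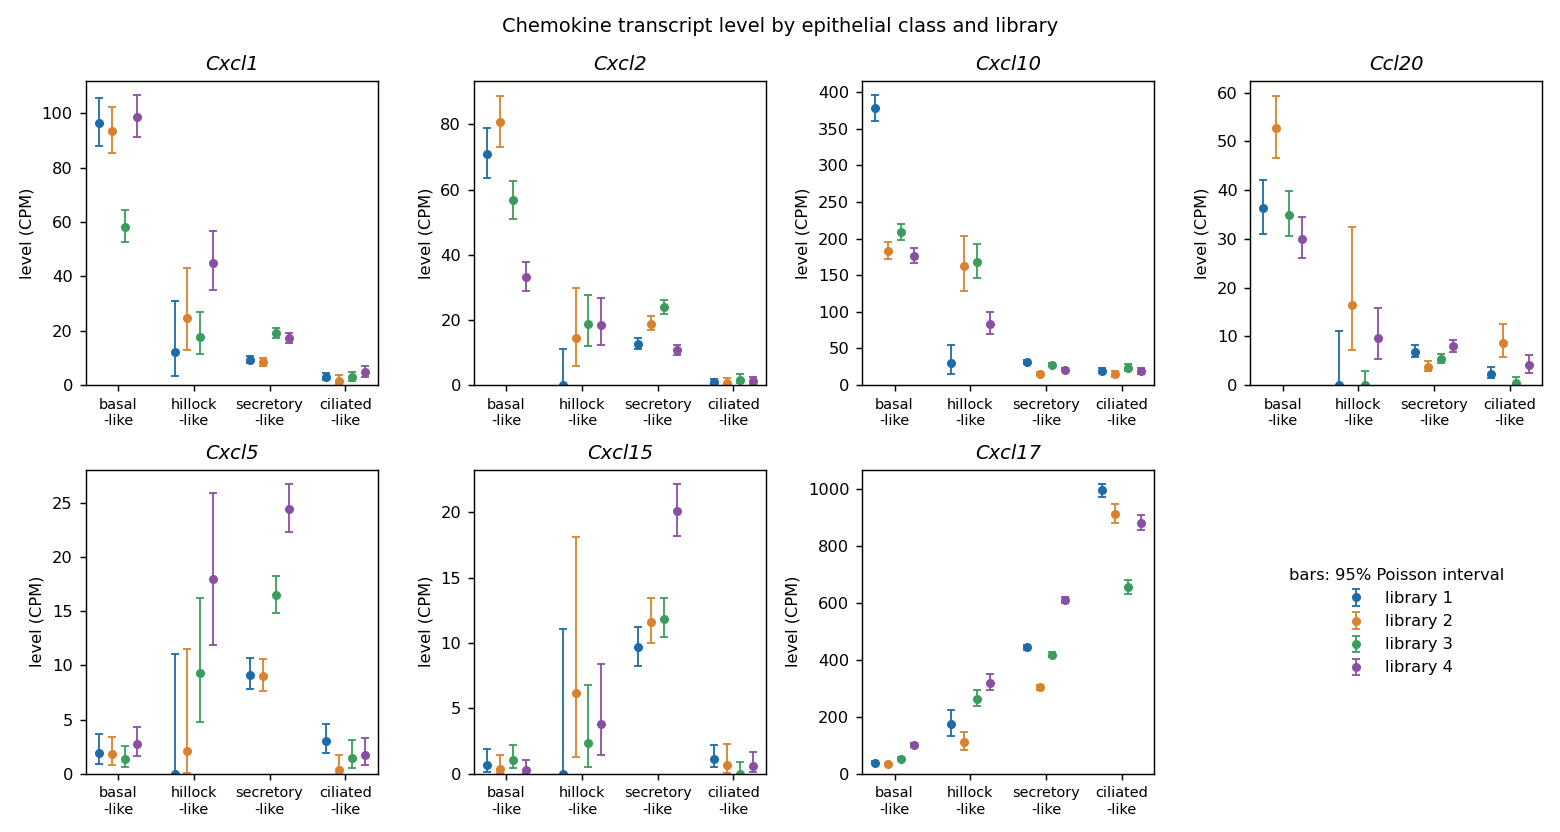
Level of each chemokine in CPM (y axis, linear, a separate scale per gene) in basal-like, hillock-like, secretory-like and ciliated-like cells of the 4 libraries. Points are libraries and bars are exact Poisson 95% intervals. Cxcl1, Cxcl2, Cxcl10 and Ccl20, summed over libraries, are highest of these 4 classes in basal-like cells, with Cxcl10 at 177 to 378 CPM, and Cxcl17 is highest in ciliated-like cells at 656 to 996 CPM.

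The basal-like class was not uniform. Cluster 9, led by Apoe, Defb1 and Dcn, held 1694 cells, cluster 1, led by Sprr2k and Tnfrsf11b, held 1931, and cluster 3, led by the haemoglobin transcript Hbb-bs and by Krt75, held 1215. Of the 5 members with enough UMIs, 4 were called higher in cluster 9 than in cluster 3, where 4.2% of genes were, namely Cxcl1, Cxcl2, Cxcl10 and Ccl20. In cluster 9 against cluster 1 the count was 1 of 5, Ccl20, where 1.55% of genes were called higher. In cluster 1 against cluster 3 it was 3 of 5, Cxcl1, Cxcl2 and Cxcl10, where 1.77% were.

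Ccl20 stood at 77.4, 147, 96.0 and 79.9 CPM in cluster 9 of libraries 1 to 4, at 29.5, 21.5, 21.2 and 9.32 CPM in cluster 1, and at 4.68, 2.75, 4.23 and 6.14 CPM in cluster 3. Cluster 1 of library 4 stood at 4.01 CPM without the 1 cell with 16 of its 28 UMIs, within the values of cluster 3, and clusters 1 and 3 were not called apart for Ccl20. Cluster 9 lay above both, and exceeded cluster 1 by a median log2 ratio of 2.42 and cluster 3 by 4.0. Cxcl1 stood at 179, 191, 105 and 190 CPM in cluster 9, at 94.8, 72.5, 55.9 and 72.2 CPM in cluster 1, and at 14.0, 16.5, 18.1 and 33.8 CPM in cluster 3.

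Cxcl2 went with Cxcl1 against cluster 3 but not against cluster 1. Its level was 69.1, 126, 63.2 and 45.9 CPM in cluster 9 and 111, 86.9, 72.6 and 34.6 CPM in cluster 1, and the direction between them changed from library to library. Cxcl10 stood at 620, 265, 374 and 277 CPM in cluster 9, at 431, 189, 201 and 176 CPM in cluster 1, and at 41.3, 67.0, 67.1 and 52.8 CPM in cluster 3. The summed level of 16 immediate early and heat shock genes, which respond to handling and digestion of tissue, was 13024 to 16006 CPM in cluster 9, 12683 to 15124 CPM in cluster 1 and 6194 to 7247 CPM in cluster 3. The 8 secretory markers summed to 11169 to 18559 CPM in cluster 9, 10541 to 20067 CPM in cluster 1 and 32707 to 65154 CPM in cluster 3, and the part of either list in these differences was not tested.

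**Figure D3:**
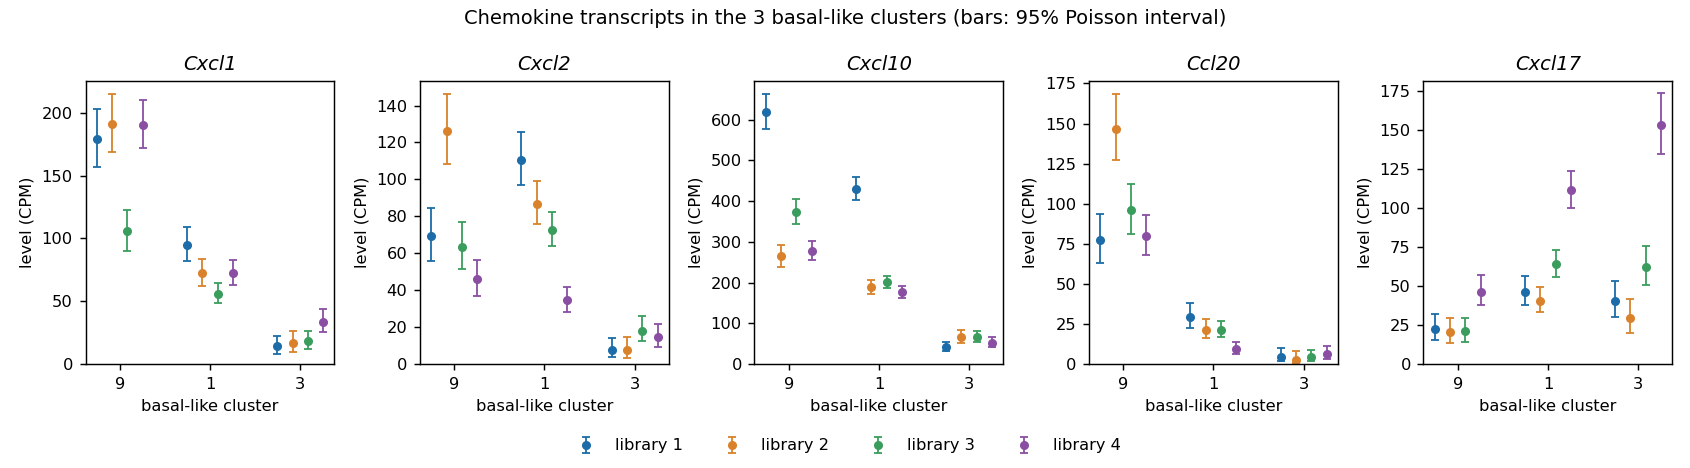
Level in CPM (y axis, linear, a separate scale per gene) of 5 chemokines in basal-like clusters 9, 1 and 3, with 1 point per library and exact Poisson 95% intervals. Ccl20 is highest in cluster 9, Cxcl2 has no fixed order between clusters 9 and 1, and Cxcl17 is lowest in cluster 9.

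In secretory-like cells only Cxcl15 was called higher than in the other cells, 1 of 7 members, where 0.144% of 13165 genes were. Cxcl10 was called lower, where 16.6% of genes were. Cxcl15 stood at 9.66, 11.6, 11.9 and 20.1 CPM in secretory-like cells, against 3.92, 4.94, 4.77 and 6.20 CPM in the other cells. The values did not overlap, the median log2 ratio was 1.14, and its lowest value, 1.09 in library 2, lay just inside the threshold. The call was lost when called doublets were kept, with a marker gate per cell and with a pseudocount of 5 CPM.

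Cxcl5 lay just outside the threshold. It stood at 9.15, 9.04, 16.5 and 24.5 CPM in secretory-like cells, against 3.79, 2.93, 7.95 and 7.47 CPM in the other cells, with log2 ratios of 1.08, 1.35, 0.97 and 1.59. It was called, beside Cxcl15, when barcodes shared by libraries were left out, with thinned cells, with the CPM of single cells averaged and against the other named epithelial classes. Against basal-like cells alone, Cxcl5, Cxcl15 and Cxcl17 were all called higher in secretory-like cells, 3 of 7 members, where 1.94% of genes were. The median log2 ratios were 2.31 for Cxcl5, 2.94 for Cxcl15 and 3.07 for Cxcl17. In basal-like cells Cxcl15 had 14 UMIs in all and Cxcl5 had 45.

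Secretory-like cells were also split. Clusters 2 and 5 held 2580 and 3277 cells, and Cxcl10 alone of the 7 members was called between them, higher in cluster 2, where 0.977% of genes were called higher. Cxcl10 stood at 57.9, 27.0, 43.5 and 33.7 CPM in cluster 2 and at 14.2, 6.01, 14.2 and 8.81 CPM in cluster 5. Cxcl17 lay just outside the threshold, with a median log2 ratio of 1.02 and a lowest one of 0.97, at 641, 413, 597 and 815 CPM in cluster 2 and 312, 211, 260 and 405 CPM in cluster 5. Cxcl15 had the opposite direction in every library, at a median log2 ratio of -0.76, and was not called. The highest Cxcl15 level of any cluster, 24.0 CPM, was in cluster 15, which is led by the goblet cell gene Tff2 and was left unnamed. By library it stood there at 6.88, 19.9, 8.38 and 48.3 CPM, and over all libraries at 16.0 CPM without the 1 cell with 18 of its 52 UMIs, against 16.2 CPM in cluster 5.

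No member was called higher in ciliated-like cells, where 18.2% of genes were, and 4 of 7, Cxcl1, Cxcl2, Cxcl10 and Cxcl15, were called lower, where 4.66% were. Cxcl17 came close. Cxcl17 stood in ciliated-like cells at 996, 914, 656 and 883 CPM in library order, against 383, 281, 342 and 476 CPM in the other cells. All 4 ciliated-like values lay above all values in the other cells, but the log2 ratios in libraries 3 and 4, 0.94 and 0.89, missed the threshold. Cxcl17 was called higher there when the CPM of single cells were averaged and when cells were thinned to 1000 UMIs.

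Cxcl17 was thus spread over luminal cells and low in basal-like cells, the reverse of Cxcl1. After thinning it was found in 53.2% of ciliated-like, 33.6% of secretory-like, 19.2% of hillock-like and 4.62% of basal-like cells. The level in basal-like cells was 38.0, 32.5, 53.2 and 102 CPM. That is 8.55% to 16.6% of the secretory-like and 3.56% to 11.5% of the ciliated-like level of the same library. Scgb1a1 was found in basal-like cells at 1.00% to 2.34% of its secretory-like level. The 8 secretory markers summed to 16871 to 30308 CPM in basal-like and 375325 to 406179 CPM in secretory-like cells. The part of free RNA in the Cxcl17 level was not tested. Cxcl1 in ciliated-like cells stood at 1.59 to 4.83 CPM and Cxcl2 at 0.637 to 1.66 CPM. For Cxcl2 that is 0.790% to 3.49% of the basal-like level, where the basal keratins Krt5 and Krt14 reached 0.374% to 1.07% and 0.405% to 1.09% of theirs. In libraries 1, 3 and 4 Cxcl2, at 1.18%, 2.92% and 3.49%, lay above both keratins. The ciliated-like cells of all libraries held 21 Cxcl2 UMIs in 18 cells, so these shares rest on few counts. All 8 basal markers summed to 51.5 to 73.9 CPM in ciliated-like and 3194 to 4964 CPM in basal-like cells. Ccl20 in ciliated-like cells of library 2 stood at 8.60 CPM, and at 1.60 CPM without 1 cell that held 22 of its 27 UMIs.

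Hillock-like cells, which had 35, 47, 197 and 195 cells in the 4 libraries, lay between basal-like and secretory-like cells for Cxcl1 and Cxcl10 when the libraries were summed, at 29.7 CPM of Cxcl1 and 119 CPM of Cxcl10. In library 3 Cxcl1 stood at 17.8 CPM, below the 19.1 CPM of secretory-like cells. In library 1 Cxcl10 stood at 30.1 CPM, below the 31.6 CPM of secretory-like cells. By library Cxcl10 stood at 30.1, 163, 168 and 83.9 CPM in hillock-like cells, and library 2 fell to 74.4 CPM without its highest cell. Cxcl17 stood at 174, 111, 264 and 321 CPM. Proliferating-like cells had Cxcl10 in 48.9% of cells, at a median depth of 9723 UMIs, and at 171, 1049, 216 and 161 CPM. The value of library 2 came from 13 cells and fell to 536 CPM without the 1 cell with 116 UMIs.

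Over the 4 libraries together, cluster 18 with its leukocyte markers had the highest levels of Cxcl2 and Cxcl10 of any cluster. Cxcl2 stood at 577 CPM, from 486 to 681, in 15 of 77 cells, and by library at 954, 43.1, 411 and 593 CPM, where library 2 had 1 UMI. Cxcl10 stood at 934 CPM, but 181 of its 228 UMIs were in 2 cells of library 4, and by library it stood at 327, 0, 215 and 4290 CPM. In libraries 1 to 3 it stood higher in basal-like cluster 9, at 620, 265 and 374 CPM, and in library 4 lower, at 277 CPM. The cluster gave 4.42% of all Cxcl2 UMIs and 2.48% of all Cxcl10 UMIs. In basal-like cells the 8 macrophage markers summed to 4.46 to 6.79 CPM, against 7.28 to 10.1 CPM in secretory-like, 13.3 to 17.7 CPM in ciliated-like and 2933 to 5807 CPM in cluster 18 cells, and C1qa, C1qb, C1qc, Adgre1 and Mrc1 were at 0 in basal-like cells of every library. The 7 neutrophil markers summed to 0.450 to 4.67 CPM in basal-like cells, against 0.0995 to 0.398 CPM in secretory-like cells.

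The receptors of these ligands were barely seen in the preparation. Cxcr2, the receptor for Cxcl1, Cxcl2 and Cxcl5, had 11 UMIs in 19421 cells, and Ccr6, the receptor for Ccl20, had 7. Cxcr3, the receptor for Cxcl10, had 14 UMIs, all of them in 7 cells of cluster 18. Of 5 receptors with at least 50 UMIs, 1 was called higher in basal-like cells, where 8.01% of all genes were. This was Ackr3, a scavenging receptor for other chemokines. It stood at 33.5, 37.9, 23.9 and 30.6 CPM in basal-like cells, a median log2 ratio of 2.89 over the other cells.

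Cxcl2 and Ccl20 were carried by the fewest cells. The cells with the most Cxcl2 that together held 50% of its UMIs numbered 87 of 19421, or 0.448%, and for Ccl20 they numbered 75. For Cxcl5 and Cxcl15, with totals close to that of Ccl20, they numbered 213 and 279. For Cxcl10 they numbered 193, for Cxcl1 276, close to Cxcl15, and for Cxcl17 2384. Ccl20 had 1614 UMIs in 576 cells, whereas Cxcl5 had 1676 in 1010 cells and Cxcl15 had 1474 in 1016 cells. Single cells reached 132 UMIs of Cxcl10, 95 of Cxcl2, 56 of Cxcl1 and 54 of Ccl20, against 22 of Cxcl5 and 18 of Cxcl15.

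**Figure D4:**
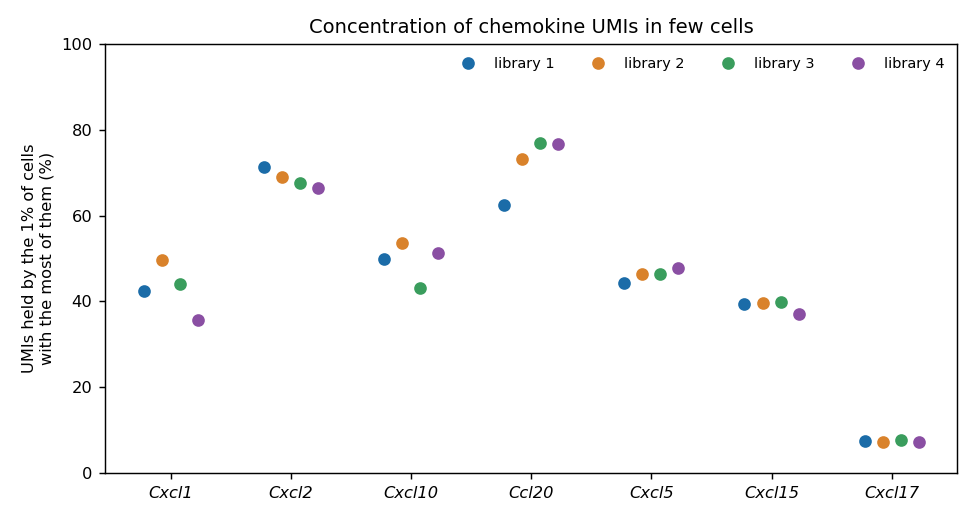
Share of each chemokine's UMIs (y axis, percent) held by the 1% of filtered cells with the most UMIs of it, 1 point per library. Cxcl2 lies at 66.5% to 71.4% and Ccl20 at 62.4% to 76.9%, above Cxcl5 at 44.2% to 47.7% and Cxcl15 at 37.1% to 39.8%. Cxcl1, at 35.7% to 49.6%, overlaps Cxcl5 and Cxcl15, and Cxcl17 lies at 7.17% to 7.63%.

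Within the basal-like class and over the 4 libraries together, each of the 4 basal-high chemokines was more frequent in cells that also had another of them. In basal-like cells thinned to 1000 UMIs, Cxcl2 was found in 11.5% (95% exact interval 8.12% to 15.7%) of the 295 cells with a Cxcl1 UMI, against 1.75% (1.39% to 2.18%) of the 4507 cells without one. By library the shares with Cxcl1 were 12.5%, 15.4%, 13.1% and 7.14%, against 2.12%, 2.91%, 1.52% and 1.05% without it. Cxcl10 was found in 27.8% of cells with a Cxcl1 UMI and in 9.70% of those without. Ccl20 was found in 9.15% of cells with a Cxcl1 UMI and in 2.29% of those without, although in library 1 the shares were 2.08% and 2.87%. Cxcl2 was found in 5.78% of cells with a Cxcl10 UMI and in 1.94% of those without, with library 4 as the exception at 0.840% and 1.55%. Cxcl17 was found in 3.39% (1.64% to 6.15%) of cells with a Cxcl1 UMI and in 4.70% (4.10% to 5.36%) of those without, a difference inside the counting error. The 3 basal-like clusters were pooled here, and they differ in these genes.

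**Figure D5:**
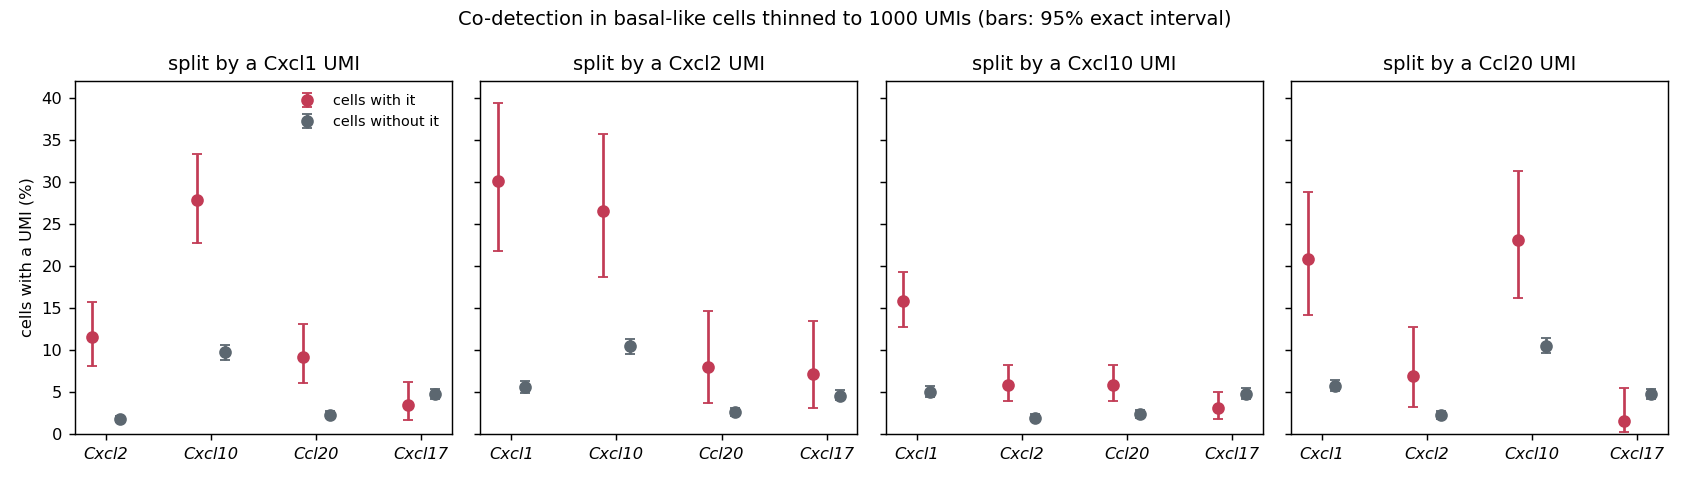
Share of basal-like cells with a UMI of each chemokine (y axis, percent, cells thinned to 1000 UMIs) among cells with, on the left, and without, on the right, a UMI of the gene named above each panel. Bars are exact 95% intervals over the 4 libraries together. Cxcl1, Cxcl2, Cxcl10 and Ccl20 are each more frequent in cells with another of them, and the intervals for Cxcl17 overlap in all 4 panels.

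Levels were also compared without thinning. Basal-like cells with a Cxcl1 UMI (702 cells, median 4751 UMIs) were set against those without (4138 cells, median 3902.5 UMIs), and 2 of 8620 genes were at least 2-fold higher in every library, 0.0232%. Both were members, Cxcl2 and Cxcl10. Cxcl2 stood at 262, 309, 270 and 124 CPM in cells with a Cxcl1 UMI, against 15.1, 30.2, 31.0 and 9.82 CPM in cells without, a median log2 ratio of 3.42. Cxcl10 stood at 816, 367, 490 and 435 CPM with a Cxcl1 UMI, against 250, 143, 175 and 110 CPM without.

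Of the 3 genes called in basal-like cells with a Cxcl10 UMI, 0.0348% of 8620, all were members, namely Cxcl1 at a median log2 ratio of 1.99, Cxcl2 at 1.5 and Ccl20 at 1.20. Of the 3 called in cells with a Cxcl2 UMI, also 0.0348%, 2 were members, Cxcl1 at 2.03 and Cxcl10 at 1.63. In cells with a Ccl20 UMI, 240 in number, 7 genes were called, 0.0812%, none a member. None of 20 genes of the NF-kB and interleukin 17 axis was called in the cells with a UMI of Cxcl1, Cxcl2, Cxcl10 or Ccl20, with medians of 0.28, 0.41, 0.35 and 0.16 in that order, against 0.02, 0.00, 0.06 and -0.01 over all genes. For 10 interferon response genes none was called either, with medians of 0.12, 0.34, 0.47 and -0.23 in the same order. The 16 immediate early and heat shock genes, none of them called, had medians of 0.37, 0.26, 0.27 and 0.30.

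Secretory-like cells were split in the same way. In cells with a Cxcl1 UMI, 5 of 9966 genes were called higher, 0.0502%, among them Cxcl2 at a median log2 ratio of 3.46, Cxcl10 at 1.26 and Tnf, the gene of tumour necrosis factor, at 1.39. In cells with a Cxcl2 UMI, 6 were called, 0.0602%, among them Cxcl1 at 3.12, Ccl20 at 2.41, Tnf at 2.24 and Tnfaip3, a feedback inhibitor of NF-kB, at 1.41. In cells with a Cxcl10 UMI, 6 were called, 0.0602%, among them Cxcl1 at 1.55 and the interferon-induced antiviral genes Ifit1 and Rsad2.

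Ifit1 stood at 194, 203, 60.1 and 29.7 CPM in secretory-like cells with a Cxcl10 UMI, against 6.02, 4.77, 8.48 and 9.19 CPM in those without. Libraries 1 and 2 had the larger gap. Of the 13 interferon response genes tested, Ifit1 and Rsad2 were the 2 called, and the list's median was 0.44, against 0.11 over all genes. Cells with a Cxcl5 UMI or a Cxcl15 UMI, 685 and 688 in number, had 0 of 9966 genes called, 0% in either direction. The cells with a UMI were deeper in each of these sets, with a median of 12446 UMIs with Cxcl1 and 10505 without, and the part of depth was not tested.

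Levels also differed between libraries, without regard to genotype. Libraries were called apart for a gene where the highest level was at least 2-fold the lowest and their 95% intervals did not overlap, among genes with at least 100 UMIs in the class. In secretory-like cells 7 of 7 members were apart, where 9.56% of 9967 genes were, with ratios from 2.02 to 2.71 against a median of 1.37 over all genes. In basal-like cells 3 of the 5 with enough UMIs were apart, where 8.56% of 8621 genes were, and in ciliated-like cells 0 of 2, where 6.4% of 9313 were.

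Most secretory-like ratios lay close to the threshold, and no single library led them all. Library 4 was highest for Cxcl5, Cxcl15, Cxcl17 and Ccl20, library 3 for Cxcl1 and Cxcl2, and library 1 for Cxcl10. Cxcl5 had the largest ratio, 2.71, between 24.5 CPM in library 4 and 9.04 CPM in library 2. With cells thinned to 1000 UMIs, 2 members remained apart, Cxcl2 and Cxcl5. Cxcl10 and Cxcl17 were not apart with doublets kept, at clustering resolution 2, with the marker gate or without shared barcodes. Ccl20 in library 1 stood at 6.82 CPM, and at 3.75 CPM without the 1 cell with 54 of its 120 UMIs.

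In basal-like cells Cxcl17 had the largest ratio, 3.12, at 102 CPM in library 4 and 32.5 CPM in library 2. The 8 secretory markers in basal-like cells summed to 30308 CPM in library 4 and 16910 CPM in library 2, and Scgb1a1 stood at 2.34% and 1.07% of its secretory-like level, and their part in this difference was not tested. Cxcl2 had a ratio of 2.43, at 80.6 CPM in library 2 and 33.2 CPM in library 4, and Cxcl10 of 2.14, at 378 CPM in library 1 and 177 CPM in library 4. Cxcl1, at 1.69, and Ccl20, at 1.75, were not apart. In library 1 a single basal-like cell held 95 of 334 Cxcl2 UMIs, and the level without it was 50.8 CPM. Whether these differences belong to the genotypes, the pools of animals or the preparations cannot be told apart.

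Of 21 genes of the NF-kB and interleukin 17 axis, 2 were called higher in basal-like cells, a share near the 8.01% of all genes, and none lower, where 8.95% were, at a median log2 ratio of 0.18 against 0.06 over all genes. They were Nfkbiz, a co-activator of NF-kB target genes, and Cebpd, a transcription factor of acute responses, which stood at 410, 429, 328 and 334 CPM in basal-like cells. The NF-kB subunit Rela and the inhibitor Nfkbia were at median log2 ratios of 0.14 and 0.18 and were not called. Of 9 other epithelial cytokines tested, Il1rn, the interleukin 1 receptor antagonist, and Il6 were called higher, where 8.01% of all genes were. Tnf and Il33 were called lower, where 8.95% were. Il1rn stood at 53.0, 56.5, 32.8 and 24.3 CPM in basal-like cells, with a median log2 ratio of 2.63.

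Of 10 genes that act on the decay of chemokine and other AU-rich mRNAs, 1 was called higher in basal-like cells, a share near the 8.01% of all genes. This was Zfp36l2, at 281, 433, 223 and 192 CPM and a median log2 ratio of 3.20. Of 15 interferon response genes tested, 7 were called higher in ciliated-like cells, where 18.2% of all genes were, among them Ifit3 and Usp18. In basal-like cells 1 was called higher, Gbp2, where 8.01% were, and 2 lower, where 8.95% were. The list's median log2 ratio there was -0.25, against 0.06 over all genes. In secretory-like cells 4 were called lower, where 16.6% of all genes were. Of 16 immediate early and heat shock genes, 11 were called higher in ciliated-like cells and 3 in basal-like cells. Called lower were 1 in basal-like and 8 in secretory-like cells. The shares of all genes, in this order, were the same 18.2%, 8.01%, 8.95% and 16.6%. The list's summed level was 14959 to 20134 CPM in ciliated-like, 11183 to 13357 CPM in basal-like and 4982 to 6944 CPM in secretory-like cells. Its part in the chemokine levels was not tested.

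Of 12 other chemokines tested, 0 were called higher in basal-like and secretory-like cells, where 8.01% and 0.144% of all genes were. In ciliated-like cells 1 was, Ccl28, a mucosal chemokine, where 18.2% of all genes were. Called lower were 2 in basal-like, 1 in secretory-like and 2 in ciliated-like cells, against 8.95%, 16.6% and 4.66% of all genes. Cxcl16, a membrane-bound chemokine whose receptor is Cxcr6, had 39728 UMIs and was even across the classes, at 217, 208, 208 and 218 CPM in basal-like, 254, 246, 242 and 272 CPM in secretory-like and 199, 154, 158 and 155 CPM in ciliated-like cells. Cx3cl1, which also tethers leukocytes at the cell surface, had a median log2 ratio of 1.42 in basal-like cells and was not called.

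Across 20 points, 5 named classes in each of 4 libraries, the genes whose log2 levels were most like those of the basal-high members other than Cxcl10 were Sh3rf1 for Cxcl1 at Pearson r = 0.89, Fam91a1 for Cxcl2 at 0.91 and Txnrd3 for Ccl20 at 0.90. For the luminal members they were Sftpb for Cxcl5 at 0.86, Wfdc1 for Cxcl15 at 0.92 and Myo5c for Cxcl17 at 0.93. Among the members themselves, Cxcl1 and Cxcl2 had r = 0.83 and Cxcl5 and Cxcl15 r = 0.84, while Cxcl17 had r = -0.78 with Cxcl1 and -0.76 with Cxcl10. These points share libraries, and the values are descriptions over the classes.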

How the data were processed

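One filtered gene-barcode matrix of the 4 tracheal libraries (10x 3′ chemistry) held the deposited counts, which are UMI counts per gene made with Cell Ranger 6.0.1, per the file headers, on build GRCm39, per the submitters' processing notes. UMIs are counted at transcript 3′ ends, and each library held 39658153 to 53491773 of them over its barcodes.

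From these counts, barcodes below 300 detected genes or above 20% mitochondrial UMIs were dropped (1308 of 21667), as were 938 doublets scored against simulated ones at 0.8% per 1000 barcodes, leaving 19421 cells. The cells were clustered with scanpy 1.11.5 (2000 variable genes without the members and listed genes, 30 principal components, 15 neighbours, Leiden resolution 1) and named from fixed markers. A cluster with 60% of the markers of another lineage was called mixed, where hillock, gland, goblet, alveolar type 2, secretory and basal markers counted as 1 lineage, deuterosomal and ciliated markers as another, and proliferating cells were exempt. Levels were compared within each library on log2(CPM + 1) for genes with at least 50 UMIs. No test across libraries was run, since each genotype had 1 library. The procedure was tested on simulated Poisson counts, which lack the concentration of UMIs in few cells seen for some members. Promoter motifs were searched on both strands in RefSeq windows.

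The members and lists were chosen with earlier results of these data known. All 7 members are named. From each list, up to 4 genes with the most UMIs were eligible to be named, and for each member the genes with the highest Pearson r, of which that for Cxcl10 is not reported here. Ackr3, Cebpd, Il1rn, Tnf, Ifit3, Usp18, Cxcl16, Rela, Nfkbia, Ifit1, Zfp36l2 and Cx3cl1 came from that rule. Nfkbiz, Il6, Il33, Gbp2, Ccl28, Rsad2 and Tnfaip3, and the genes of the closing observations outside it, were named after their values were seen. Other doublet, mitochondrial, clustering, class, depth, pseudocount and reference settings were tried.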

Additional observations from a re-analysis of the deposited data

How the results depend on the processing

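Of 111 values recomputed for the counts of calls, 90 kept their place and 21 moved. The log2 ratio of each member in its leading class moved by more than its 95% counting interval under 3 to 6 of 10 alternatives and reversed under none, with ranges of 0.77 to 2.67 for Cxcl15, 0.78 to 2.15 for Cxcl5, 0.86 to 1.61 for Cxcl17, 1.62 to 2.18 for Cxcl2, 2.67 to 3.27 for Cxcl1 and 2.63 to 2.90 for Cxcl10, and a lowest value of 2.11 for Ccl20. Cxcl1, Cxcl2, Cxcl10 and Ccl20 were called higher in basal-like cells under each of 10 alternatives. Calling a cluster mixed only at 75% of markers left these cells and their reference unchanged, so it could not alter these calls. The 1 member called in secretory-like cells became 0 with doublets kept, with a marker gate and with a pseudocount of 5 CPM. It became 2, Cxcl5 and Cxcl15, with CPM averaged over cells, with thinning to 1000 UMIs, against the other named epithelial classes and without shared barcodes. The 0 members called in ciliated-like cells became 1 with averaged CPM and with thinning. The 7 members apart between libraries in secretory-like cells became 4 at 10% mitochondrial UMIs and 2 with thinning. The 0 apart in ciliated-like cells became 4 when a cluster was mixed only at 75% of markers, an alternative chosen after seeing the data, which adds cluster 8 to that class. Over all genes, the 19 called in secretory-like cells became 80 with averaged CPM, 64 with thinning and 118 against the named classes, and the 1055 in basal-like cells became 697 with a pseudocount of 5 CPM. The genes apart between libraries fell with thinning to 312 of 953 in secretory-like, 359 of 738 in basal-like and 328 of 596 in ciliated-like cells. In ciliated-like cells they became 899 with no minimum of UMIs and 921 at 75% of markers. The cause was not tested, except that thinning leaves fewer UMIs per gene. Leaving out the highest cell of each member, also chosen after seeing the data, left the members apart as they were. Averaged CPM gave no value for members apart, and no replicate could be left out. No paired analysis was possible because each genotype had 1 library.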

Other observations

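Some low-abundance chemokines outside the epithelial group had much of their UMIs in a small cluster. Cxcl16, Cx3cl1, Ccl25, Ccl28 and Ccl9 did not, and their largest shares, 17.9% to 32.2%, lay in clusters 2, 5 and 8. Cxcl13, which attracts B cells, had 95.7% of its 675 UMIs in cluster 13, with 258 cells and neuroendocrine markers such as Calca and Chga. The cluster was mixed, with 8 of 8 ciliated and 5 of 8 secretory markers as well. Cxcl13 stood at 160 CPM there and was found in 130 cells. Cluster 18, with its macrophage and T cell markers, held 96.5% of 199 UMIs of Ccl4, 93.4% of 91 UMIs of Ccl3 and 41.0% of 926 UMIs of Ccl5, which recruit monocytes and T cells. Ccl2, a monocyte attractant, had 28 of its 42 UMIs in cluster 17, in 2 of its 15 cells.

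Among receptors, Cxcr6, whose ligand is Cxcl16, had 90.4% of its 83 UMIs in cluster 18. Ackr4, a scavenging receptor of chemokines, had 96 of 99 UMIs in cluster 16, in 80 of its 356 cells. This mixed cluster had tuft cell markers such as Gnat3 and Trpm5, beside 8 of 8 ciliated and 5 of 8 secretory markers.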
